A study of Mus musculus with 12 samples.

Results

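The Krüppel-like factors (KLFs) described here are 10 genes, Klf2, Klf4, Klf6, Klf7, Klf9, Klf10, Klf12, Klf13, Klf15 and Klf16, among the 43280 gene rows of the deposited counts, and each was found by its symbol. They were chosen by gene name with earlier results of these same libraries known. In those results Klf9 was among the genes with the smallest p-values for higher expression after modified maternal separation (MMS). The MMS against control values of the members are therefore given as a description and carry no test. Of the 10 members, 9 passed the filter on low counts. Klf12, with 7 counts over all libraries, did not.

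The libraries came from the hypothalamus of male C57/Bl6 pups at postnatal day 6, with 6 control and 6 MMS pups and 1 library per pup. MMS pups had been kept apart from the dam for a short daily session in which they were repeatedly turned onto their backs, and the tissue was taken directly after the last session. The control pups shared strain, sex, age and litters with them but were not separated in this way. Within each litter the paper assigned males to both groups, so siblings can lie in different groups. The labels do not name litters, so siblings cannot be matched, and the tests treat the pups as independent.

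KLFs are transcription factors that bind GC-rich and CACCC-containing promoter DNA through zinc fingers at the carboxy-terminal end of the protein. The fingers are much alike across the family, while the rest of the protein sets whether a member activates or represses. Klf9, Klf10, Klf13 and Klf16 can recruit the Sin3A co-repressor, Klf12 can recruit the CtBP co-repressors, and Klf2, Klf4, Klf6 and Klf7 are mostly known as activators. In the brain, Klf9 is known as a gene induced by glucocorticoids and by thyroid hormone that accompanies neuronal maturation. Klf15 is a textbook glucocorticoid target in metabolic tissues, and Klf6 and Klf7 are known for promoting axon growth.

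The promoters of Klf9 and Klf15 are shown first because these members had the highest MMS to control ratios among those that passed the count filter. Each is the 250 bases before the RefSeq start (build GRCm38.p6, the same assembly as mm10), written 5′ to 3′ on the strand of the gene. Capitals mark matches on either strand to GGGCGG (the GC box) or CACCC, the bases that KLF zinc fingers are known to read, so GGGTG is CACCC on the opposite strand. The Klf9 stretch is chr19:23140976-23141225 on the plus strand and the Klf15 stretch is chr6:90462326-90462575 on the plus strand.

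Klf9: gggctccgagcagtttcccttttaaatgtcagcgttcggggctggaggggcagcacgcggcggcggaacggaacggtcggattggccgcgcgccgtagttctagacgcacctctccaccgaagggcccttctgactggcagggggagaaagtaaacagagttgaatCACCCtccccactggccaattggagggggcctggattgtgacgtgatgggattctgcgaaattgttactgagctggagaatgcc

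Klf15: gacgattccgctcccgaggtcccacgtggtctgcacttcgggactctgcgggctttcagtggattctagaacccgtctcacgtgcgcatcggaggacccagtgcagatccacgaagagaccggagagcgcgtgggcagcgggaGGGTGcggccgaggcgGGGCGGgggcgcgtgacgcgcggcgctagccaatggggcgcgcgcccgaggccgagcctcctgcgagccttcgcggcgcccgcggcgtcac

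Of the members, 8 matched the promoter table, all but Klf10 and Klf16. The GC box was in 6 of these 8 stretches, where 32.7% of 32851 promoters of the same length held it. Klf4 had 4 matches, Klf13 had 3, and Klf9 and Klf12 had 0. The bases directly after the start were found in a GENCODE transcript for all of these genes but Klf4. The Klf7 and Klf12 stretches lie inside the GENCODE spans of their genes, and thus not at the outermost start. CACCC was in 6 of the 8 against 52.0% of all promoters, with 3 matches in Klf7 and 1 in Klf9. The core bases read by steroid receptors (AGAACA) and by thyroid hormone receptors (AGGTCA), and the full cyclic AMP response element (TGACGTCA), were in 0 of the 8. Those letters were in 16.1%, 14.0% and 1.55% of all promoters. For only 8 stretches, 0 is close to these shares, and bases outside the stretches were not searched. Both strands were searched throughout and matches may share bases. The GC content was 59.6% for Klf9 and 72.0% for Klf15, against a median of 52.4% over all promoters. Over the 8 stretches it ran from 48.0% (Klf12) to 74.0% (Klf4), and only Klf12 lay below that median. The part of GC content in the GC box matches was not tested.

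Library totals ran from 3218777 to 6560620 counts, and 13104 genes passed the filter. Levels are given as CPM, the count of a gene relative to its library total after TMM scaling, which sets the libraries to a common level for most genes. Since each transcript gives reads from its 3′ end only, CPM was compared between genes with no correction for length. The annotation used for counting was not given, so the order of levels between genes is approximate. All 7 hypothalamic markers (Pomc, Agrp, Avp, Oxt, Hcrt, Sim1 and Nkx2-1) were tested, with summed levels of 379 to 1094 CPM in controls and 457 to 1182 CPM in MMS. The libraries MMS 2 and MMS 4 differed most from the rest, with 57.8 and 46.3 on the first principal component (30.4% of the variance), on which the other 10 ran from -14.4 to -3.04. The 5 ependymal cilia markers summed to 8.87 CPM in MMS 2 and 24.5 CPM in MMS 4, below the 51.5 to 136 CPM of the others. The 5 neuronal markers also summed lowest in these libraries, at 4703 and 4766 CPM, against 5500 to 6760 CPM in the other MMS libraries and 6106 to 6800 CPM in controls. Taken singly, 3 neuronal markers were higher and 2 lower in MMS, with a median log2 fold change of 0.06. Astrocyte markers summed highest of all libraries in MMS 2 (1176 CPM) and MMS 4 (1178 CPM). Markers of meninges and fibroblasts summed to 61.7 to 133 CPM in controls and 26.7 to 118 CPM in MMS, with 4 of 6 MMS libraries below every control, all 3 tested markers lower and a median log2 fold change of -0.47. Microglial markers summed to 126 to 168 CPM in controls and 109 to 132 CPM in MMS, with 3 of 6 MMS libraries below every control. Of the 5 microglial markers 3 were nevertheless higher and 2 lower in MMS, with a median log2 fold change of 0.0003. The part of these cell types in the Klf values was not tested. Klf values that rest on MMS 2 and MMS 4 are given with and without these libraries. In whole tissue, fewer cells of a type and less RNA per cell cannot be told apart.

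Klf7 was the most abundant member. In controls the means followed the order Klf7 (188 CPM), Klf9 (60.4 CPM), Klf6 (51.0 CPM), Klf13 (47.1 CPM), Klf16 (36.0 CPM), Klf2 (15.1 CPM), Klf10 (7.31 CPM), Klf15 (5.82 CPM), Klf4 (5.45 CPM) and Klf12 (a single count over the 6 controls). The control ranges did not overlap between Klf7 and Klf9, between Klf16 and Klf2, or between Klf4 and Klf12. The other neighbours in this order overlapped in range. Klf9 lay above Klf6 in 11 of 12 libraries, whereas Klf6 lay above Klf13 in 6 of 12 and Klf10 above Klf15 in 4 of 12.

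**Figure D1:**
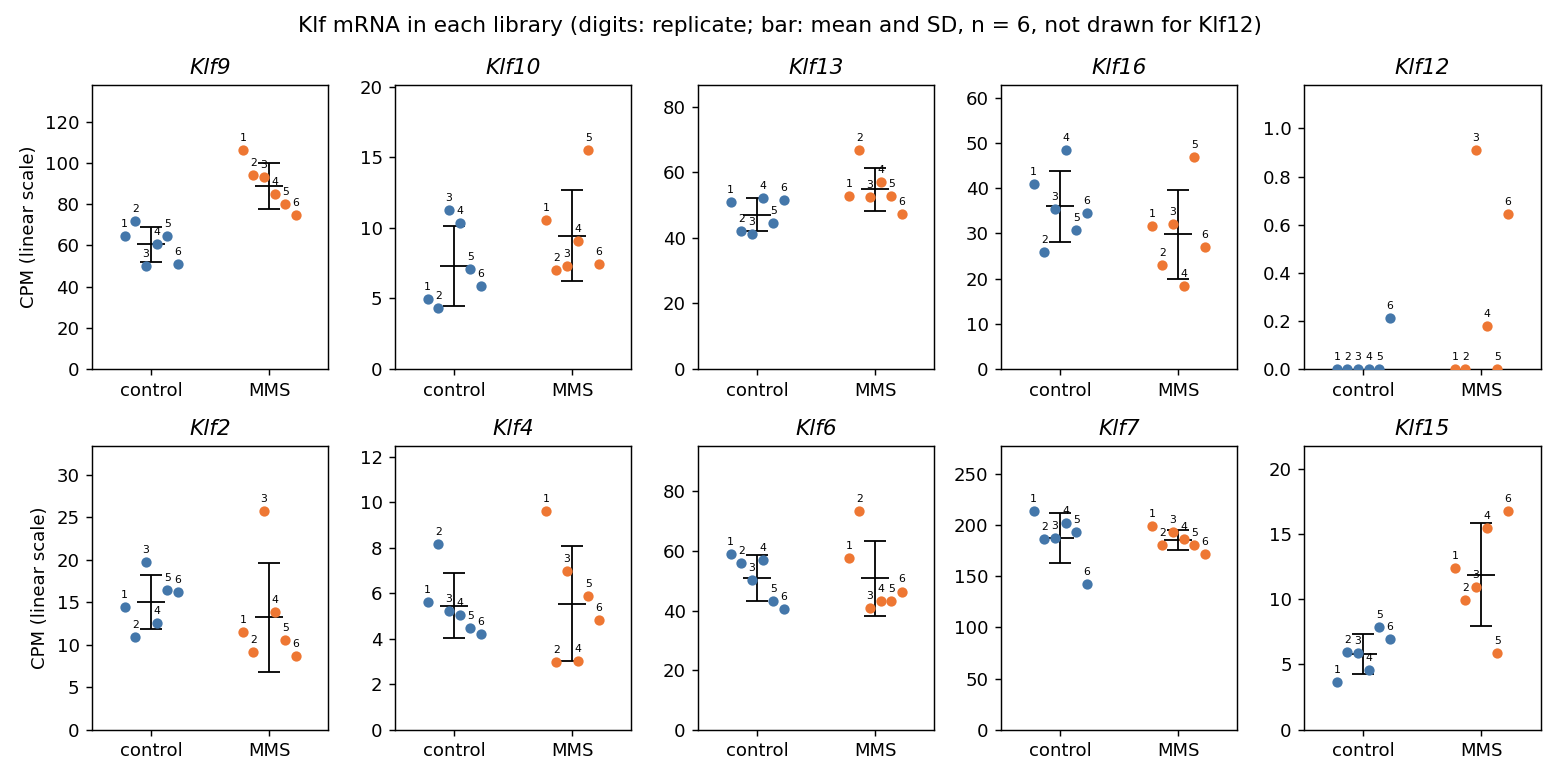
Level of each Klf member in each of the 12 libraries, in CPM on linear axes that start at 0, with control libraries in blue and MMS libraries in orange. Digits are replicate numbers and bars give the mean and SD (n = 6 per group, not drawn for Klf12). For Klf9 the groups do not overlap, for Klf15 they overlap through MMS 5, and Klf7 lies at about the same level in both groups.

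The first comparison asked how the members that can recruit Sin3A differed between MMS and control pups. Klf9 was higher in every MMS pup than in any control pup, and Klf13 and Klf10 had higher means in MMS. Klf16 had a lower mean in MMS, and its ranges overlapped widely.

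Klf9 lies at chr19:23141226-23168134 on the plus strand (GRCm38, GENCODE annotation, as for all gene positions given here) and its principal transcript has 2 exons. Its control levels were 49.8 CPM at the lowest, 62.6 CPM at the median and 72.0 CPM at the highest. In MMS they were 74.7 CPM at the lowest, 89.0 CPM at the median and 106 CPM at the highest. All 6 MMS libraries thus lay above all 6 controls, which held for 0.130% of all tested genes. Mean Klf9 was 60.4 ± 8.60 CPM for controls and 88.8 ± 11.3 CPM for MMS pups (SD, n = 6 per group), a log2 fold change of 0.56 (SE 0.12) or 1.47-fold. MMS 2 (94.3 CPM) and MMS 4 (84.8 CPM) lay within the range of the other MMS libraries (74.7 to 106 CPM), and the log2 fold change without them was 0.56 (SE 0.12). It ran from 0.51 to 0.61 over the 12 fits that left out 1 library. With 232 to 478 counts per library, counting error alone gave a coefficient of variation of 5.47%, against 14.2% between controls and 12.8% between MMS libraries.

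Klf13 (chr7:63886351-63938915, minus strand) is the closest relative of Klf9 in the family and acts mainly as a repressor. Its control levels were 41.3, 47.7 and 52.0 CPM at the lowest, median and highest library. The MMS levels were 47.3, 52.7 and 66.6 CPM in the same order. Of the MMS libraries 5 lay above all controls and MMS 6 lay within the control range. Klf13 had a log2 fold change of 0.22 (SE 0.12). MMS 2 (66.6 CPM) and MMS 4 (57.1 CPM) were the highest of all libraries for Klf13, and without both the log2 fold change was 0.13 (SE 0.12).

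Klf10 (chr15:38291463-38300706, minus strand), known as an early gene induced by TGF-beta, measured 4.35, 6.50 and 11.2 CPM at the lowest, median and highest control library. In MMS it measured 6.98, 8.23 and 15.5 CPM. Only MMS 5 lay above all controls, and 3 controls lay below all MMS libraries. On the log2 scale MMS exceeded control by 0.37 (SE 0.27), by 0.18 without MMS 5, and by 0.49 (SE 0.28) without MMS 2 and MMS 4. Klf10 had 16 to 79 counts per library, and its coefficient of variation was 39.1% in controls.

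Klf16 (chr10:80567124-80577321, minus strand), a repressor of the same subgroup, measured 25.8, 35.0 and 48.4 CPM at the lowest, median and highest control library. In MMS it measured 18.3, 29.3 and 46.9 CPM. MMS 2 (23.1 CPM) and MMS 4 (18.3 CPM) were the only libraries below all controls. Klf16 had a log2 fold change of -0.27 (SE 0.19), of -0.05 (SE 0.16) without both, and of -0.44 without MMS 5, its highest MMS library. The lower mean of Klf16 in MMS thus rested largely on MMS 2 and MMS 4. In these libraries the neuronal and ependymal marker sums were also lowest and the astrocyte sums highest. The part of these cell types in the result was not tested.

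The second comparison took Klf15, which is usually placed outside the Sin3A and CtBP subgroups. It lies at chr6:90462576-90475238 on the plus strand. Control levels were 3.66 CPM at the lowest, 5.92 CPM at the median and 7.87 CPM at the highest. MMS levels were 5.88 CPM at the lowest, 11.7 CPM at the median and 16.7 CPM at the highest. Of the MMS libraries 5 lay above all controls, and MMS 5, the lowest, lay close to the control median. Mean Klf15 was 5.82 ± 1.53 CPM for controls and 11.9 ± 3.93 CPM for MMS pups (SD, n = 6 per group). The log2 fold change of 1.01 (SE 0.25), or 2.02-fold, was the largest among the members that passed the filter.

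The depth behind Klf15 was low, with 17 to 87 counts per library. Counting error alone gave a coefficient of variation of 15.9%, against 26.3% between controls and 33.1% between MMS libraries. The log2 fold change ran from 0.90 without MMS 6 to 1.17 without MMS 5 and was 0.95 (SE 0.28) without MMS 2 and MMS 4. Klf15 is known to be expressed in astrocytes in the brain. The 5 astrocyte markers (Aqp4, Gja1, Slc1a3, Aldh1l1 and Gfap) were all tested, with 0 at 0 counts, and summed to 877 to 1124 CPM in controls and 855 to 1178 CPM in MMS. Their ranges in the groups overlapped and their median log2 fold change was -0.06. The libraries did not follow 1 pattern. MMS 5 had the lowest astrocyte sum (855 CPM) and the lowest Klf15 of the MMS group. MMS 4 had the highest sum (1178 CPM), with Klf15 at 15.4 CPM. However, MMS 6 had the highest Klf15 (16.7 CPM) with a sum of 938 CPM, and MMS 2 had a sum of 1176 CPM with Klf15 at 9.94 CPM. The part of astrocytes in the Klf15 values was not tested.

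The third comparison took the members mostly known as activators. None of Klf2, Klf4, Klf6 and Klf7 had groups that separated, and their log2 fold changes lay between -0.20 and 0.03.

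Klf7 (chr1:64029447-64122282, minus strand) measured 142, 190 and 214 CPM at the lowest, median and highest control library and 172, 184 and 199 CPM in MMS. It was the member with the smallest spread in MMS, with a coefficient of variation of 5.35% against 13.0% in controls. The log2 fold change was -0.02 (SE 0.10), from 534 to 1253 counts per library. Klf6 (chr13:5861482-5870394, plus strand) measured 40.5, 53.2 and 59.0 CPM in controls and 40.9, 44.9 and 73.3 CPM in MMS. The highest value of Klf6 was that of MMS 2, and the group means were 51.0 ± 7.68 and 50.8 ± 12.5 CPM (SD, n = 6 per group). The signs of the log2 fold changes of Klf6 and Klf7, both close to 0 (-0.003 for Klf6), changed when some single libraries were left out. Without MMS 2 and MMS 4 the values were -0.105 (SE 0.13) for Klf6 and -0.005 (SE 0.10) for Klf7.

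Klf2 (chr8:72319033-72321656, plus strand), known for its response to blood flow in endothelial cells, measured 10.9, 15.3 and 19.8 CPM at the lowest, median and highest control library. In MMS it measured 8.70, 11.0 and 25.7 CPM. MMS 3 was the highest of all 12 libraries, while 3 MMS libraries lay below all controls. For Klf2 the log2 fold change was -0.20 (SE 0.24), -0.48 without MMS 3, and -0.12 (SE 0.25) without MMS 2 and MMS 4. The 6 endothelial markers (Cldn5, Pecam1, Cdh5, Tek, Flt1 and Ly6c1) were all tested and summed to 101 to 116 CPM in controls and 71.4 to 117 CPM in MMS. MMS 3, with the highest Klf2, had an endothelial sum of 81.2 CPM, below every control. MMS 5 (71.4 CPM) and MMS 6 (86.6 CPM) were also below every control in this sum, and there Klf2 was below every control as well, at 10.6 and 8.70 CPM. In MMS 2 Klf2 was likewise below every control (9.13 CPM), but the endothelial sum there was the highest of all libraries (117 CPM). The endothelial markers had a median log2 fold change of 0.06, and their part in the Klf2 values was not tested.

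Klf4 (chr4:55527143-55532466, minus strand), also expressed in endothelial cells and best known from the reprogramming of cells to pluripotency, measured 4.21, 5.12 and 8.15 CPM at the lowest, median and highest control library. In MMS it measured 2.95, 5.36 and 9.60 CPM. It was lowest in MMS 2 (2.95 CPM) and MMS 4 (3.02 CPM), which both lay below all controls. For Klf4 the log2 fold change was 0.03 (SE 0.30) with all libraries and 0.35 (SE 0.29) without MMS 2 and MMS 4, and it was -0.19 without MMS 1. Klf4 had 11 to 41 counts per library, so that counting error alone gave a coefficient of variation of 20.2%.

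Klf12 (chr14:99870632-100284679, minus strand), a repressor that recruits CtBP, was close to the limit of detection. It had 1 count in 1 of 6 controls and 6 counts over 3 of 6 MMS libraries. Relative to the group totals this is a ratio of 7.22 with an exact 95% counting interval of 0.876 to 332. The interval pools the counts of each group, leaves out the spread between pups and is not a test. No group difference in Klf12 is read from so few counts.

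**Figure D2:**
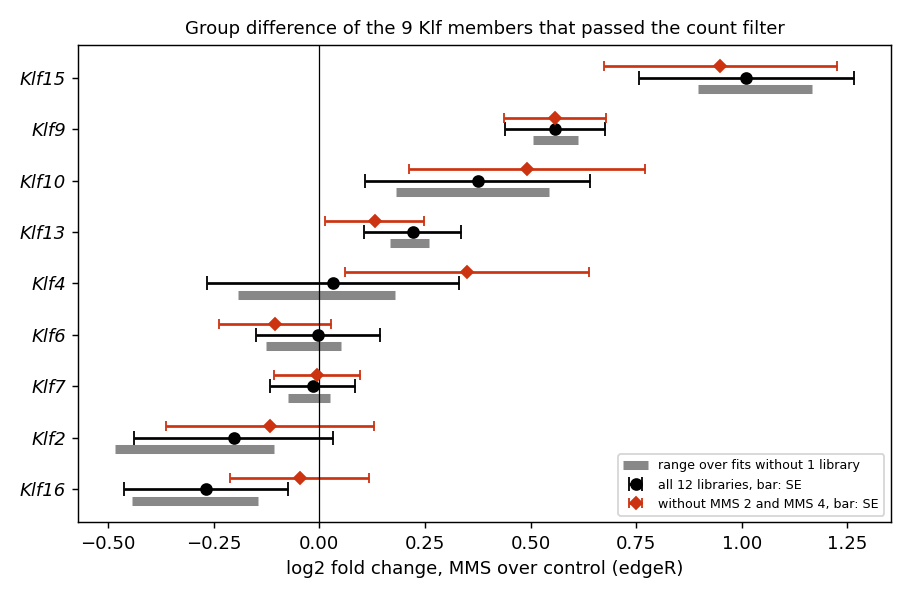
Log2 fold change of MMS over control from edgeR for the 9 Klf members that passed the count filter. Black points with SE bars use all 12 libraries, grey bands give the range over the fits without 1 library, and red diamonds with SE bars leave out MMS 2 and MMS 4. Klf9 (0.56) and Klf15 (1.01) stay at similar values throughout, while Klf4 and Klf16 shift without these libraries.

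Set beside the whole table, 0 of the 9 members passed an adjusted p of 0.05 in edgeR, where 0% of 13104 genes did. At an unadjusted p under 0.05 there were 2 members higher in MMS, Klf9 and Klf15, against 4.68% of all genes, and 0 lower, against 4.40%. Leaving out MMS 2 and MMS 4 gave the same 2 members, where 2.41% of genes were higher. Some fits without 1 library added a member to these 2. Klf13 was added as higher without control 6 or without MMS 6. Klf2 was added as lower without MMS 3, and Klf16 as lower without MMS 5. With DESeq2, 1 member, Klf9, was past an adjusted p of 0.05 and higher, as were 0.0382% of all genes. In every other alternative, among them limma-voom, the replicate block and each fit that left out libraries, 0 members were past it. The groups did not overlap for 1 member higher in MMS, Klf9, and for 0 lower, where 0.259% of genes had all MMS libraries below all controls. The median log2 fold change of the 9 was 0.03, against 0.001 over all genes, with 5 members above 0 and 4 below. Because this contrast was known when the members were chosen, nothing is read from these counts.

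The make-up of the Klf counts was also examined, as the share of all 17 Klf genes in each library. The Klf sum was 453 ± 34.7 CPM for controls and 488 ± 27.1 CPM for MMS pups (SD, n = 6 per group), and without Klf9 it was 393 ± 31.8 and 400 ± 16.4 CPM. Klf9 took 11.1% to 16.2% of the Klf counts in controls and 16.5% to 20.1% in MMS, so that these ranges did not meet. The share of Klf7 was 41.3 ± 2.67% in controls and 38.0 ± 1.25% in MMS, and that of Klf15 was 1.31 ± 0.409% and 2.46 ± 0.903% (SD, n = 6 per group). These shares come from the same contrast and are given without a test.

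**Figure D3:**
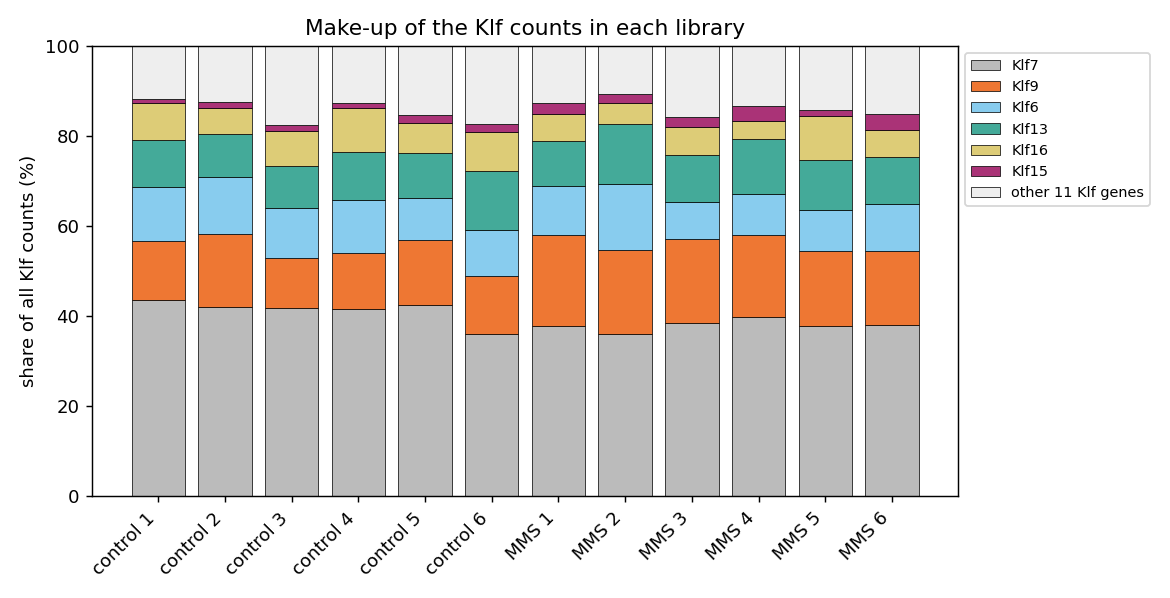
Share of all Klf counts (percent, axis from 0 to 100) taken by Klf7, Klf9, Klf6, Klf13, Klf16, Klf15 and the other 11 Klf genes together, with 1 bar per library. Klf7 is the largest part in every bar, and the Klf9 part is 11.1% to 16.2% in controls and 16.5% to 20.1% in MMS.

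The genes whose pattern over the 12 libraries was most like that of Klf9 were ranked among 11745 genes by Pearson's r of log2 CPM. They were Gclm (r = 0.90), Rfng (0.86), Ptprr (0.86), Cntn5 (0.86) and Wsb2 (0.86). All 5 had higher means in MMS, with log2 fold changes of 0.24 for Gclm, 0.12 for Rfng, 0.45 for Ptprr, 0.58 for Cntn5 and 0.18 for Wsb2. The ranking is a description over libraries that share the group difference and the 2 libraries apart from the rest, and it carries no p-value. Only 1 of the 5 stayed among the top 5 by Spearman's rho, and 1 when MMS 2 and MMS 4 were left out. Among the members, Klf15 ranked 478 (r = 0.60) and Klf13 ranked 623 (r = 0.56), whereas Klf16 had r = -0.41 and Klf2 had r = -0.31.

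The rest of the family was tested too. Its list was also drawn up with earlier results known and holds the Klf genes left after the members were picked, so it is no independent check on them. Of the other 7 Klf genes, 5 passed the count filter, and of the 9 Sp genes, which carry the same type of zinc fingers, 7 did. None of these 12 passed the threshold over all genes (edgeR adjusted p = 0.543 to 0.986). At an unadjusted p under 0.05 there were 2 of the 12 higher in MMS, Sp8 and Sp5, and 0 lower, where 4.68% of all genes were higher and 4.40% lower. Both are known from the patterning of the embryonic brain.

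The other Klf genes were low. Klf8, a CtBP-binding repressor, had a mean of 13.3 ± 2.72 CPM among controls and 15.3 ± 2.95 CPM among MMS pups (SD, n = 6 per group), with a log2 fold change of 0.18 (SE 0.18). Klf14, an imprinted relative of Klf9 and Klf16, had -0.33 (SE 0.33), and Klf5 had -0.20 (SE 0.27). Klf3 had 0.10 (SE 0.26) and Klf11, the closest relative of Klf10, had -0.02 (SE 0.27). The signs of Klf3 and Klf11 changed when some single libraries were left out. Klf1, the erythroid member, had 22 counts in all and Klf17 had 0 counts.

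Mean Sp8 was 4.68 ± 2.03 CPM among controls and 10.5 ± 7.57 CPM among MMS pups (SD, n = 6 per group), a log2 difference of 1.20 (SE 0.52) with an adjusted p of 0.543 from edgeR. It was highest in MMS 4 (19.7 CPM) and MMS 2 (19.3 CPM), and the log2 fold change without both was 0.37. Sp5 had 0.79 (SE 0.37) with an adjusted p of 0.544 from edgeR, and 0.37 without both libraries. Sp9, Sp2, Sp3 and Sp4 had log2 fold changes of 0.66, 0.20, 0.03 and 0.02, and Sp1, the most abundant Sp gene, had -0.15. Without MMS 2 and MMS 4 the value of Sp9 was -0.080, that of Sp4 was -0.066 and that of Sp1 was 0.15.

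**Figure D4:**
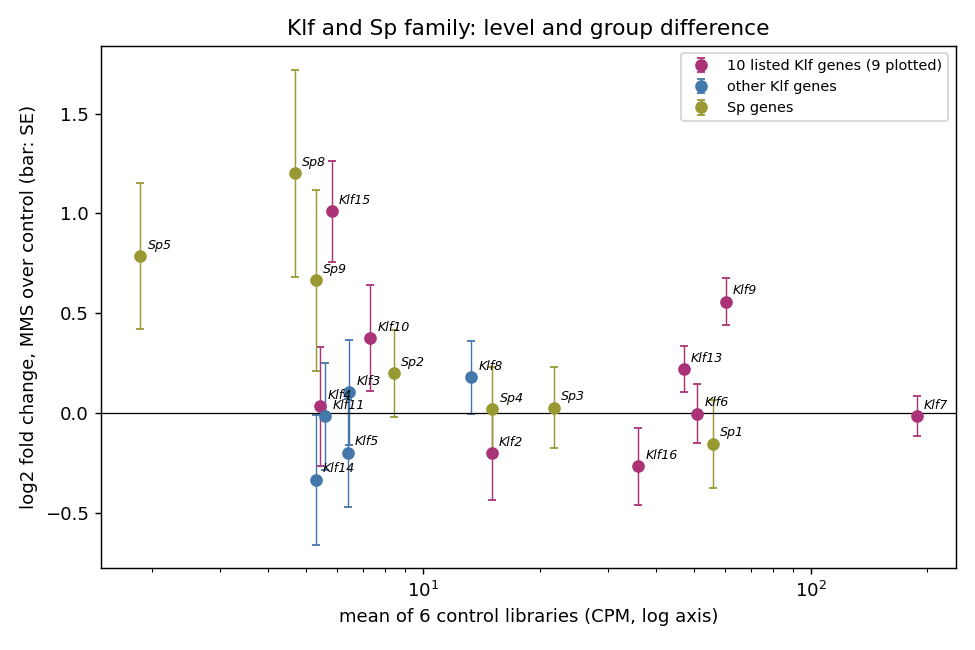
Log2 fold change of MMS over control (edgeR, bars give the SE) against the mean level in the 6 control libraries (CPM, log axis) for the tested Klf members, the other tested Klf genes and the tested Sp genes. Klf9 lies at 60.4 CPM and 0.56, apart from Klf6, Klf13, Klf16 and Sp1 at similar levels, and the less abundant genes have wider bars.

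Known regulators and partners of KLF proteins were taken next. The list held nuclear receptors and kinases that act on Klf transcription, the MEF2 factors, and the Sin3, HDAC, CtBP and acetyltransferase cofactors. All 18 were tested, 8 were higher and 10 lower in MMS, and 0 passed the threshold over all genes. The median log2 fold change was -0.05. The smallest unadjusted p was that of Mef2c, a neuronal transcription factor that can drive Klf2 and Klf4 in endothelial cells, with 45.4 ± 11.8 CPM in controls and 34.2 ± 5.56 CPM in MMS (SD, n = 6 per group). The difference of Mef2c was -0.41 on the log2 scale (SE 0.16), with an adjusted p of 0.543 from edgeR. Map2k5, the kinase upstream of ERK5, had 0.30 (SE 0.18) and Ctbp2 had -0.21 (SE 0.14), with edgeR adjusted p-values of 0.589 and 0.631.

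Textbook targets of single KLFs in other tissues gave no call either. Of 14 listed genes 12 were tested, with 6 higher and 6 lower in MMS, a median log2 fold change of 0.01 and 0 past the threshold (edgeR adjusted p = 0.630 to 0.989). Of the listed targets, Ccl5 had 0 counts in every library. The smallest p-values were those of Prodh, Cdkn1a and L1cam. Prodh, a proline-degrading enzyme and a Klf15 target in liver, had a log2 fold change of 0.49 (SE 0.33). Cdkn1a, a cell cycle inhibitor, had 0.17 (SE 0.12), and L1cam, a neural adhesion molecule linked to Klf7, had 0.10 (SE 0.10).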

How the data were processed

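Hypothalamic RNA of 12 pups was made into 3' mRNA libraries (1 per pup) and sequenced on an Ion Proton. The authors aligned the reads to mm10 in Torrent Suite and deposited raw counts per gene, unnormalized and unpooled. Which counting tool, strand setting and annotation were used was not given in the sources used here. In GENCODE M21 the members Klf7, Klf9, Klf12 and Klf13 overlap other genes, all of which had 0 counts.

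Groups came from the sample titles. The main test was edgeR 4.0.16 (quasi-likelihood, robust, two-sided) with TMM scaling and the filterByExpr defaults (count 10, total 15), with Benjamini-Hochberg adjustment over 13104 genes and a threshold of 0.05. Alternatives were DESeq2 1.42.0, limma-voom (limma 3.58.1), other scaling, no filter, a replicate block and leaving out libraries. The self-test on simulated counts was run first. Over 30 within-group pairs the chi-square per degree of freedom was 4.04 to 31.5, so no library was taken as a repeat of another. Of the gene rows, 27 had symbols turned into dates (0.175% of counts) and were kept unnamed.

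The members and lists were chosen with earlier results of these data known. Named were all members, the tested Klf and Sp genes, the 3 smallest p-values of the other lists, and the 5 genes most like Klf9 with a mean of at least 20 counts. Intervals cover counting error only. Marker sums of the oligodendrocyte lineage were 657 to 973 CPM in controls and 697 to 975 CPM in MMS.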

Additional observations from a re-analysis of the deposited data

Results flagged for a closer look

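Dixon's ratio was computed for the tested members, the Klf sum and the marker sums, which gave 36 groups of 6 libraries. In 4 of them 1 library lay beyond the 95% limit, and chance alone would give about 1.8. In MMS 3 Klf2 was 25.7 CPM, while the other MMS libraries lay between 8.70 and 13.8 CPM. In control 2 Klf4 was 8.15 CPM, while the other controls lay between 4.21 and 5.60 CPM. The microglial marker sum was 168 CPM in control 4 against 126 to 133 CPM in the other controls, and the meningeal and fibroblast marker sum was 133 CPM in control 3 against 61.7 to 83.4 CPM.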

How the results depend on the processing

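The log2 fold changes of Klf2, Klf9, Klf10, Klf13, Klf15 and Klf16 kept their sign in all 18 alternatives, and those of Klf4, Klf6 and Klf7 did not. Klf9 ran from 0.56 to 0.57 and Klf15 from 0.94 to 1.02 over the 6 alternatives that did not leave out 1 library at a time. The number of genes past an adjusted p of 0.05 was 7 with DESeq2, 5 without MMS 2 and MMS 4, 1 with no count filter and 1 with the replicate block, and it ran from 0 to 1 on leaving out 1 library, with the 1 arising without MMS 2 or without MMS 4. Genes at an unadjusted p under 0.05 numbered 1190 with all libraries, 674 without MMS 2 and MMS 4, 2039 with no count filter, and 700 (without MMS 2) to 1804 (without MMS 5) on leaving out 1 library. The cause of these shifts was not tested.

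Same-numbered control and MMS libraries had correlations of their deviations between -0.05 and 0.12. Whether the numbers pair littermates cannot be told from such values, because the labels name no litters. The replicate block gave 1224 genes at an unadjusted p under 0.05. Of the 6 controls, 2 correlated best with the MMS library of their own number.

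Signs turned for some family genes. Klf11 (-0.02) was 0.10 without MMS 2 and MMS 4, 0.017 in limma-voom, 0.024 with the replicate block and -0.14 to 0.078 on leaving out 1 library. Klf3 (0.10) then ran from -0.041 to 0.22 and Sp3 (0.03) from -0.10 to 0.12. Sp4 (0.02) was -0.066 without MMS 2 and MMS 4, -0.054 in limma-voom, -0.047 with the replicate block and -0.12 to 0.16 on leaving out 1 library. Without MMS 2 and MMS 4, Sp9 was -0.080 and Sp1 was 0.15. Among the members, depth limits Klf12, Klf4, Klf10 and Klf15 most.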
